A study of Homo sapiens with 4 samples.

Results

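The B-cell homing and adhesion genes CCR7, S1PR1, RGS1, CD44 and ALCAM were followed through every array probe that the platform annotation gives to them. They had 15 of the 15246 probes of the array, 4 for CCR7, 2 for S1PR1, 2 for RGS1, 6 for CD44 and 1 for ALCAM. All 5 genes had at least 1 probe with a value on all 4 arrays (11 probes in all), and they are set here against the 3589 genes measured in that way. RNA came from OCI-Ly3, an established human line grown from a diffuse large B-cell lymphoma of the activated B-cell class, which needs NF-kB to grow, and was read on 2-colour arrays. On every array cDNA of cells given doxycycline at 20 ng/ml (Cy5) was set against cDNA of cells without it (Cy3). Per the design text the study compares cells that do and do not express a hairpin that targets the CHUK transcript, which encodes IKKa, and doxycycline is read here as its inducer. On 2 arrays both channels had received MLN120b, an inhibitor of the kinase IKKb, at 12.5 uM, for 3 h (doxycycline for 2 days) or 24 h (doxycycline for 3 days). On the other 2 arrays neither channel had inhibitor, and doxycycline was given for 2 or 3 days. The labels name no array with a control hairpin, so an effect of the hairpin and one of doxycycline cannot be told apart, and they do not say whether the line was 1 clone.

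B cells reach lymph nodes and leave them by reading gradients. CCR7 is the receptor for the chemokines CCL19 and CCL21 and draws B cells towards the T-cell zone, while S1PR1, a receptor for sphingosine 1-phosphate, draws lymphocytes out into lymph and blood. Both signal through Gi proteins, and RGS1 speeds the shut-off of such G proteins and so damps chemokine responses. CD44 binds hyaluronan, and ALCAM (CD166) is an adhesion molecule of the immunoglobulin superfamily that binds itself and the T-cell protein CD6. IKKa and IKKb are kinases that release NF-kB from its inhibitors, and CCR7 is a known NF-kB target in B cells.

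All values below are log2 ratios of doxycycline over no doxycycline, with no level of either channel behind them. That direction is the likely one from the dyes given in the labels, and the deposited table does not state it. Turned round, every sign would change and each "higher" would read "lower". The arrays correlated at 0.44 to 0.72 over 9788 probes (Pearson's r), so none ran against the others. No array had the dyes swapped, so a fixed dye bias of a probe cannot be told apart from an effect of doxycycline in a single ratio. It cancels in the difference between arrays. CHUK stood at -1.30 on the 3 h and -1.01 on the 24 h inhibitor array, and at -0.59 (2 days) and -0.87 (3 days) without inhibitor. Of 7 measured B-cell markers none passed the test in any comparison, and their means lay between -0.14 and 0.20 with inhibitor. All 8 measured T-cell markers had means above 0 with inhibitor (0.11 to 0.34), none of which passed. Without inhibitor 7 of these 8 were above 0, and none passed. The part of these markers in the results below was not tested. Of other lineages, 4 myeloid markers (means of -0.31 to 0.61 with inhibitor) and 1 endothelial marker were measured, and none passed. Ratios cannot show whether a marker is expressed.

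With IKKb inhibited, 3 of the 5 genes passed the test, limma with Benjamini-Hochberg adjustment over all 3589 genes at an adjusted p under 0.05. CCR7 and ALCAM fell and S1PR1 rose, while RGS1 and CD44 did not pass. Here and below, a fall or rise with inhibitor means lower or higher with doxycycline than without it, where both channels had inhibitor. It is not a response to the inhibitor. Of all genes 4.57% passed in this comparison, 3.04% lower and 1.53% higher. Without inhibitor none of the 5 passed. Of all genes 0.0% passed there, and 400 had an unadjusted p under 0.05, CCR7, S1PR1 and ALCAM among them. After arrays were scaled to equal spread, 191 genes passed without inhibitor and 150 with it. The median over the 5 genes was -0.22 with inhibitor and -0.16 without, beside -0.01 and -0.03 over all genes. The mean with inhibitor minus the mean without passed for none of the 5 (0.0% of all genes, 173 of them at an unadjusted p under 0.05 and none of the 5 among these). The p-values rest on arrays that are different time points and are not stated to come from separate cultures. They measure only the spread between these arrays. All 4 arrays share 1 estimate of each gene's spread, so the calls in 1 group depend on the arrays of the other. ALCAM had an unadjusted limma p of 0.000381 in both groups and passed only with inhibitor. The counts of 3 with and 0 without inhibitor therefore do not show a difference between the groups.

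Promoter sequence is shown for the pair of genes whose means lay above 0 with inhibitor. RefSeq's table (GRCh38.p14) holds windows from 250 bases before to 50 after the start of 4 of the 5 genes, and has none for CCR7. S1PR1 is printed from chr1:101236769-101237068 and RGS1 from chr1:192575523-192575822, both on the plus strand. Capitals mark matches, on either strand, to a relaxed form of the kappaB motif, the kind of site that NF-kB binds (GG, then purines, any bases and pyrimidines in pairs, then CC), and to CACCC, the box that Krüppel-like factors bind. One of that family, KLF2, is a known activator of S1PR1 in lymphocytes.
S1PR1: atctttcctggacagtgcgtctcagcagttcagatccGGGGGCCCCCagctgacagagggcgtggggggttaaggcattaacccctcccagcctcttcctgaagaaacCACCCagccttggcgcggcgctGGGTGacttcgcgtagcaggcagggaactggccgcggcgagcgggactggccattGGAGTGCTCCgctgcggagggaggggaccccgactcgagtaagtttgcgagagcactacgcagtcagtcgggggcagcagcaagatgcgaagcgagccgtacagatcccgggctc
RGS1: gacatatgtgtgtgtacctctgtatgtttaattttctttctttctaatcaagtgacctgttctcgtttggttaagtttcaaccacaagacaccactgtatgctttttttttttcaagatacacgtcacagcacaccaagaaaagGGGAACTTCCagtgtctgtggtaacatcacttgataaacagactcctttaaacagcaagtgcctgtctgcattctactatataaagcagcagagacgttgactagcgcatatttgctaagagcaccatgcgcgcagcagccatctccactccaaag
The RGS1 window held 1 relaxed kappaB match (GGGAACTTCC, beginning 106 bases before the start) and no CACCC. The S1PR1 window held 2 relaxed kappaB matches, beginning 213 and 65 bases before the start, and 2 of CACCC. No marked match overlapped another kind. Neither window held the strict kappaB form, which also fixes the third base as G and the sixth as A or T, nor did those of CD44 and ALCAM, which also lacked the relaxed form. CD44 had 2 matches to CACCC and ALCAM none. Such letters are common: of 35116 promoter windows of this length 14.0% held the relaxed and 5.91% the strict kappaB form, and 59.9% held CACCC. A match is a description of these letters and not a site shown to be bound.

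**Figure D1:**
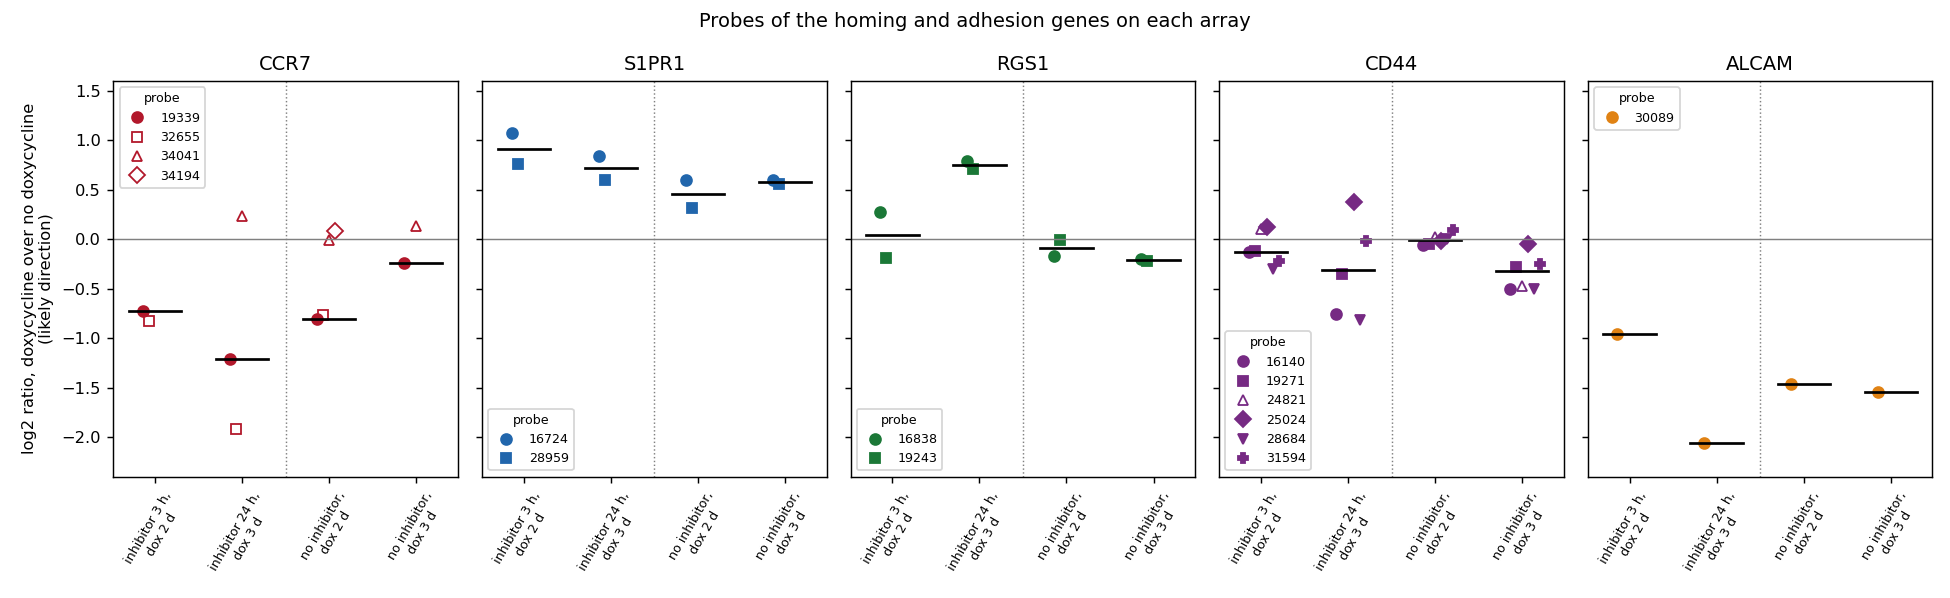
Log2 ratios (y axis, doxycycline over no doxycycline in the likely direction) of each probe of the 5 genes on the 2 arrays with inhibitor (left of the dotted line) and the 2 without. Filled symbols are probes with a value on all 4 arrays, open symbols lack a value on at least 1, and black bars are the gene values used in the test; both S1PR1 probes lie above 0 on every array, the ALCAM probe lies below, and the CCR7 and CD44 probes spread to both sides.

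CCR7, the lymph node homing receptor, was lower with doxycycline than without it on the arrays with inhibitor. Its fitted probe, 19339, stood at -0.72 on the 3 h and -1.21 on the 24 h inhibitor array, and at -0.80 (2 days) and -0.24 (3 days) without inhibitor. It lay below 0 on all 4 arrays, as 25.8% of genes did. The groups overlapped, because the 2-day array without inhibitor was lower than the 3 h inhibitor array. The mean was -0.97 ± 0.35 with inhibitor (1.96-fold lower, limma adjusted p = 0.0354) and -0.52 ± 0.39 without (adjusted p = 0.355; SD, n = 2 arrays each). The means differed by -0.45 (SE 0.25, 95% interval -1.04 to 0.15, adjusted p = 0.999). Among the 3589 genes CCR7 ranked 76 (3 h) and 43 (24 h) from the lowest with inhibitor, and 17 and 900 at 2 and 3 days without inhibitor. The call with inhibitor ended after arrays were scaled to equal spread (mean -0.80, adjusted p = 0.078).

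The 4 CCR7 probes disagreed. Probe 32655 stood at -0.82 (3 h) and -1.91 (24 h) with inhibitor and at -0.77 at 2 days without, with an empty cell at 3 days without. Where both had a value it followed probe 19339 at 2 days, and it was lower than that probe at 24 h of inhibitor. In a fit of 12776 single probes that needed only 1 value in each group, an alternative chosen after seeing the data, it fell with inhibitor (mean -1.37, limma adjusted p = 0.0236), as did probe 19339 (adjusted p = 0.0233), where 8.31% of all probes passed. Probe 34041 lay near or above 0, at 0.23 on the 24 h inhibitor array and at -0.01 and 0.14 at 2 and 3 days without inhibitor. With 1 value with inhibitor it has no spread of its own there, and no test of it is given. Probe 34194 had 1 value, 0.08 at 2 days without inhibitor. So 2 of the 4 probes fell with inhibitor, probe 34041 stood above 0 on its only inhibitor array, and probe 34194 had no value with inhibitor. The sources used here do not give which part of the transcript each reads. With the 3 probes that could be fitted averaged, each where it had a value, the gene's mean was -0.87 with inhibitor (adjusted p = 0.0326) and -0.29 without. Probe 34041 was absent from that average on the 3 h array, and probe 32655 at 3 days without inhibitor, so the probes averaged differed between arrays.

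The difference by day was not the same in all CCR7 probes. At 2 days of doxycycline the array with 3 h of inhibitor minus the array without gave 0.08 for probe 19339 and -0.055 for probe 32655. At 3 days the array with 24 h of inhibitor minus the array without gave -0.97 for probe 19339 and 0.098 for probe 34041, the only other probe with both values, while 1.98% of genes lay beyond 1.5-fold lower in that difference. Each such difference sets 1 array against 1 and has no test, and longer doxycycline and longer inhibitor go together in it.

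S1PR1, the receptor for egress into blood and lymph, was higher with doxycycline than without it on the arrays with inhibitor. On all 4 arrays it had the opposite sign to the fitted CCR7 probe, 19339, though not to every CCR7 probe. Its gene value was 0.92 on the 3 h and 0.72 on the 24 h inhibitor array, and 0.46 (2 days) and 0.58 (3 days) without inhibitor. Both inhibitor arrays lay above both arrays without it, as was so for 19.4% of genes, and all 4 were above 0, as was so for 15.5%. The mean was 0.82 ± 0.14 with inhibitor (1.77-fold higher, limma adjusted p = 0.0234) and 0.52 ± 0.09 without (1.43-fold, adjusted p = 0.212; SD, n = 2 arrays each). The difference of the means, 0.30 (SE 0.17, 95% interval -0.09 to 0.69), did not pass (adjusted p = 0.999). Without inhibitor S1PR1 ranked 7 from the highest of the 3589 genes by its mean, and with inhibitor 26. After scaling to equal spread it passed with inhibitor and without, at means of 0.74 and 0.67 (adjusted p = 0.0389 and 0.0408, the second where 5.32% of all genes passed).

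Both S1PR1 probes carried the rise. Probe 16724 stood at 1.07 and 0.84 with inhibitor (3 h and 24 h) and at 0.60 at 2 days and 0.60 at 3 days without. Probe 28959 stood at 0.76 and 0.60 with inhibitor and at 0.32 and 0.56 without. The probes differed by 0.04 to 0.32 on an array and kept the same order on each. Fitted as single probes, both rose with inhibitor (limma adjusted p = 0.00516 and 0.0176, where 10.0% of 9788 probes passed), and neither passed without it (0.0855 and 0.228). The lead of the inhibitor arrays was greater at 2 days, at 0.46 for the gene, than at 3 days, at 0.14, with 1 array on each side.

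**Figure D2:**
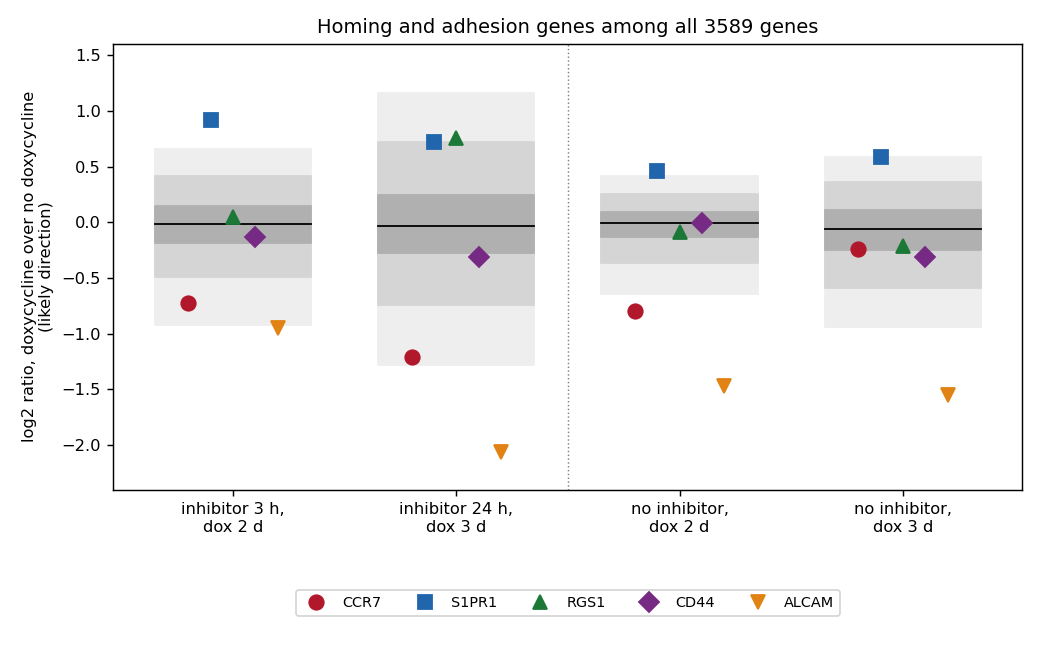
Gene values of the 5 genes (symbols, log2 ratio on the y axis) on the 2 arrays with inhibitor and the 2 without, over the spread of all 3589 genes. Grey bands run from the 1st to the 99th, the 5th to the 95th and the 25th to the 75th percentile, with the median as a line; S1PR1 lies high and ALCAM low on every array, RGS1 is high on the 24 h inhibitor array alone, and CCR7 lies within the bulk on the 3-day array without inhibitor alone.

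RGS1, the regulator that shuts off G proteins behind chemokine receptors, was near or below 0 on 3 arrays and high on the fourth. It stood at 0.04 on the 3 h and 0.75 on the 24 h inhibitor array, and at -0.09 (2 days) and -0.21 (3 days) without inhibitor. Both inhibitor arrays lay above 0 and both others below, a pattern that 3.23% of genes shared, though the 3 h value was close to 0. The mean was 0.40 ± 0.50 with inhibitor (limma adjusted p = 0.186) and -0.15 ± 0.09 without (adjusted p = 0.8; SD, n = 2 arrays each). The difference of the means was 0.55 (SE 0.25, 95% interval -0.03 to 1.13), with an unadjusted p of 0.0614 and an adjusted p of 0.989. Without the 3 h array, where the spread rests on the 2 arrays without inhibitor, the 24 h array alone gave a difference of 0.90 (limma adjusted p = 0.00941, where 3.32% of all genes passed). Without the 24 h array the difference was 0.19.

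The RGS1 probes were close at 24 h of inhibitor and on opposite sides of 0 at 3 h. Probe 16838 stood at 0.28 (3 h) and 0.80 (24 h) with inhibitor and at -0.17 and -0.20 without. Probe 19243 stood at -0.19 and 0.71 with inhibitor and at -0.01 and -0.22 without. At 3 days the inhibitor array exceeded the other by 1.00 and 0.93 for these probes, and 4.51% of genes lay beyond 1.5-fold higher in that difference. At 2 days the probes differed in sign, at 0.44 and -0.18. By gene value RGS1 and CCR7, which act on one signalling route as brake and receptor, lay on opposite sides of 0 on both inhibitor arrays. Both lay below 0 on the arrays without inhibitor. At 3 h the RGS1 value was close to 0 (0.04), and its probe 19243 (-0.19) lay on the same side as CCR7. At 24 h CCR7 probe 34041 (0.23) lay on the same side as RGS1.

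**Figure D3:**
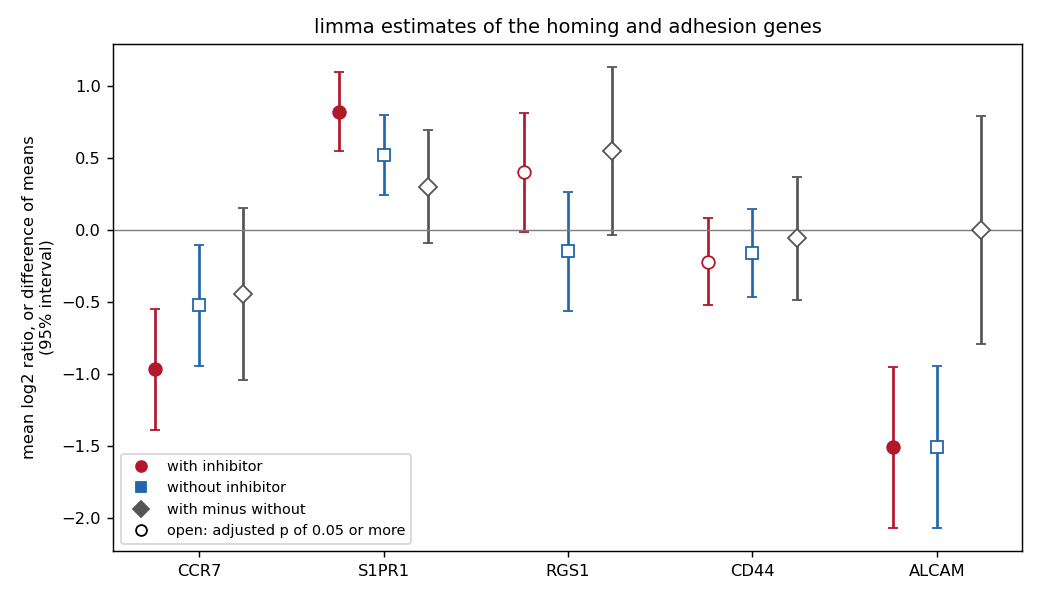
limma estimates for the 5 genes (y axis, mean log2 ratio with inhibitor and without, and their difference) with 95% intervals. Filled symbols passed at an adjusted p under 0.05 (CCR7, S1PR1 and ALCAM with inhibitor), and the intervals of all 5 differences include 0.

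CD44, the hyaluronan receptor, did not pass in any comparison as a gene. Averaged over 5 probes it stood at -0.13 (3 h) and -0.31 (24 h) with inhibitor and at -0.01 (2 days) and -0.32 (3 days) without. The array with inhibitor minus that without gave -0.12 at 2 days and 0.003 at 3 days, and both 3-day arrays lay below both 2-day arrays. The mean was -0.22 ± 0.13 with inhibitor (limma adjusted p = 0.3) and -0.16 ± 0.22 without (adjusted p = 0.693; SD, n = 2 arrays each). The difference was -0.06 (95% interval -0.49 to 0.37, adjusted p = 0.999), and its sign turned when the 24 h array was left out (0.03) or the 2-day array without inhibitor (0.10).

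The average covers CD44 probes that disagreed. On the 24 h inhibitor array they ran from -0.82 (probe 28684) and -0.76 (16140) through -0.35 (19271) and -0.02 (31594) to 0.37 (25024). That span of 1.19 compared with a median of 0.69 among the 77 genes with 5 measured probes, 13 of which were wider. At 2 days without inhibitor the span was 0.15 and 72 of the 77 genes were wider. Probes 16140 and 28684 stood at -0.50 and -0.51 at 3 days without inhibitor, so they were low on both 3-day arrays. Probe 25024 was above 0 on both inhibitor arrays (0.13 and 0.37) and just below it on the others (-0.01 and -0.05). Probe 24821, empty on the 24 h array, stood at 0.10 on the 3 h array and at 0.02 and -0.47 at 2 and 3 days without inhibitor. None of the 5 probes measured on all arrays passed as a single probe with inhibitor, the lowest adjusted p by limma being 0.0721 for probe 28684. CD44 is known for its many spliced forms, and the sources used here do not give the form each probe reads.

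ALCAM, the adhesion molecule that binds CD6, was the lowest of the 5 genes on every array. It stood at -0.95 on the 3 h and -2.06 on the 24 h inhibitor array, and at -1.47 (2 days) and -1.55 (3 days) without inhibitor. At 2 days without inhibitor it was the lowest of all 3589 genes, and it ranked 32 (3 h), 5 (24 h) and 6 (3 days without) from the lowest on the others. All 4 arrays were beyond 1.5-fold lower, as in 0.669% of genes. The arrays with inhibitor lay on either side of those without. The mean was -1.51 ± 0.78 with inhibitor (2.85-fold lower, limma adjusted p = 0.0253) and -1.51 ± 0.06 without (2.84-fold, adjusted p = 0.121; SD, n = 2 arrays each). The difference of 0.00 had a 95% interval of -0.79 to 0.79, which leaves differences of that size either way undetected with these arrays. By day it was 0.51 at 2 days and -0.51 at 3 days, with 1 array on each side.

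ALCAM rested on a single probe, 30089. Without inhibitor its call depended on the fit: it passed among single probes (adjusted p = 0.0344, where 0.245% of 9788 probes passed), with doxycycline day as a block (0.0369, where 1.56% of all genes passed) and after scaling to equal spread (0.00501). With inhibitor the calls of CCR7, S1PR1 and ALCAM all ended when either array without inhibitor was left out (adjusted p = 0.0602, 0.0582 and 0.0612), although the means with inhibitor stay the same in those fits.

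The 3 genes nearest to each of the 5 in their 4 log2 ratios were found by Euclidean distance over the 3589 genes. S1PR1 was nearest to HOXB5 (distance 0.20), GSTM5 (0.34) and RBM20 (0.41). HOXB5, a homeobox gene, stood at 0.77 and 0.67 with inhibitor and at 0.41 and 0.48 without. CCR7 was nearest to RAD17, of the DNA damage checkpoint (0.33), RBBP6 (0.33) and TASOR (0.36). RAD17 stood at -0.757 and -0.997 with inhibitor and at -0.56 and -0.23 without. RGS1 was nearest to TP53INP1 (0.13), LARGE2 (0.15) and STAT5A (0.18), of which STAT5A, a cytokine-activated transcription factor, stood at -0.04 and 0.63 with inhibitor and at -0.16 and -0.30 without. CD44 had the closest neighbours, OLA1 (0.04), ABHD17A (0.05) and CCNI (0.06), none further than 0.06 from it over the 4 arrays. ALCAM had the most distant, CD2AP, an adaptor of the actin cytoskeleton (0.68), PARPBP (0.69) and SEL1L (0.71). Such distances depend on how many genes lie near a value. CD44 lay in the bulk, at percentiles 18.1 to 50.5 of all genes on the arrays, and ALCAM at the low end, at 0.0 to 0.9. The order of the distances is therefore no measure of a shared pattern.

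Other genes of homing and adhesion were read from 7 lists, 76 of whose 124 genes were measured on all arrays. With inhibitor 2 of the 76 fell and none rose, beside 4.57% of all genes called. Their median was 0.00 with inhibitor and -0.03 without, and 38 lay above and 38 below 0 with inhibitor. Without inhibitor, and for the difference, limma called none of the 76.

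CXCL13, the chemokine that draws CXCR5-bearing B cells into follicles, was lower with doxycycline than without it on the arrays with inhibitor. It stood at -0.75 (3 h) and -1.85 (24 h) with inhibitor and at -0.11 (2 days) and -0.38 (3 days) without. Both inhibitor arrays lay below both others, as was so for 11.2% of genes. The mean with inhibitor was -1.30 ± 0.78 (SD, n = 2 arrays, limma adjusted p = 0.0359). ITGA4, the alpha4 integrin chain that binds VCAM1, stood at -0.68 and -0.80 with inhibitor and at -0.38 and 0.02 without, with a mean of -0.74 ± 0.09 with inhibitor (adjusted p = 0.0345). Both calls ended without either array that lacked inhibitor (adjusted p = 0.0717 and 0.0612), and that of ITGA4, which rested on 1 probe, also after scaling to equal spread (0.0674) and with all probes averaged that had 1 value in each group (0.142). With doxycycline day as a block 8 of the 76 rose and 7 fell, where 25.3% of all genes passed.

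Among other receptors of the kind of CCR7, none of 10 measured chemoattractant receptors passed with inhibitor (median 0.02, range -0.19 to 0.57), and the largest means were those of CCR6 (0.57, adjusted p = 0.0706) and the scavenging receptor ACKR3 (0.53, 0.12). Of the ligands of CCR7, CCL21 had a mean of -0.33 with inhibitor (adjusted p = 0.112) and 0.11 without. In the sphingosine 1-phosphate list only CD69, which pulls S1PR1 from the surface, and the phosphatase PLPP3 were measured, at means of 0.12 and 0.18 with inhibitor, and neither passed.

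Of 12 other RGS genes none passed with inhibitor (median 0.02), and their means ran from -0.49 for RGS4 to 0.65 for RGS20 (adjusted p = 0.0963 and 0.0517). The 21 measured genes of G protein signalling in chemotaxis had a median of -0.12 with inhibitor and -0.12 without, with 15 and 16 below 0 and none called. GNAI2, the Gi subunit behind CCR7 and S1PR1, had a mean of -0.48 with inhibitor (adjusted p = 0.11), and DOCK8, an exchange factor of migrating lymphocytes, one of -0.45 (0.0777). Among 23 adhesion molecules ITGA4 was the 1 call with inhibitor, the median was 0.10, and SELPLG, the selectin ligand, had the highest mean at 0.38 (adjusted p = 0.104). The 5 measured genes around CD44 had a median of -0.16 with inhibitor, with the hyaluronan receptor HMMR at -0.46 (adjusted p = 0.137) and the membrane anchor ANK3 at 0.43 (0.0731).

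CCR7 was also set beside known NF-kB targets. That list was chosen with earlier results of these data known, so its share of calls is a description and no test. Of 8 such genes 5 fell with inhibitor, TNFAIP3 (-0.88), NFKBIA (-0.83), NFKB1 (-0.73), IRF4 (-0.70) and REL (-0.62), with limma adjusted p-values of 0.0229 to 0.0443, beside 3.04% of all genes called lower. Without inhibitor 7 of the 8 lay below 0 (median -0.31) and none passed, and neither did any difference of the means. With inhibitor CCR7 at -0.97 and ALCAM at -1.51 had lower means than all 8. S1PR1 at 0.82 and RGS1 at 0.40 were higher than all 8, and CD44 at -0.22 was within the range of the 8, -0.88 to -0.16. Without inhibitor CCL22, at -0.95, had a lower mean than CCR7, at -0.52.

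**Figure D4:**
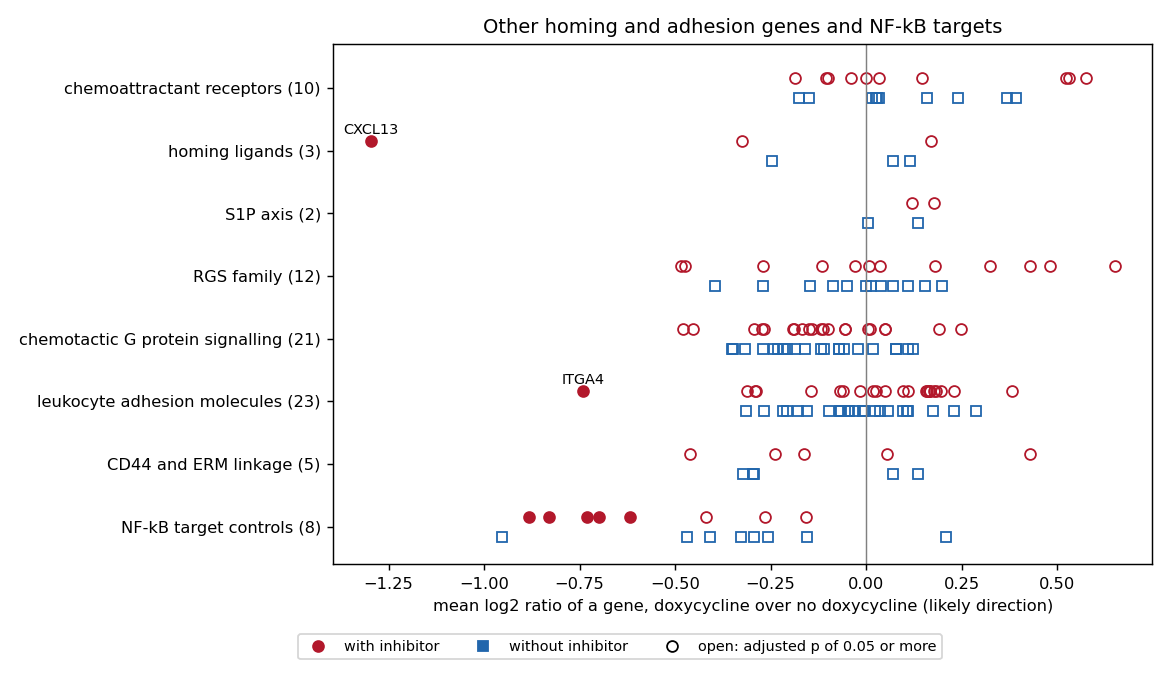
Mean log2 ratios (x axis, doxycycline over no doxycycline in the likely direction) of the measured genes of 7 homing and adhesion lists and of 8 NF-kB targets, with inhibitor (red circles, upper row of each list) and without (blue squares), the number of genes in brackets. Filled symbols passed at an adjusted p under 0.05: CXCL13 and ITGA4, which are named, and 5 NF-kB targets, all with inhibitor and all below 0.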

How the data were processed

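Expression was measured on 4 two-channel arrays. For each array the authors deposited a column of log ratios, 1 per probe, which were taken as log2 values, since a log10 base would make the values span 13.1 orders of magnitude. Array medians lay between -0.007 and 0, so the authors appear to have centred the deposited log2 ratios. How they corrected background, filtered spots and left cells empty is not stated in the labels used here. Arrays held 11722 to 14375 values of 15246 probes; precision is limited by there being only 4 arrays.

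Probes with 1 symbol (10169, of which 10128 matched RefSeq's gene table by gene identifier) and a value on all 4 arrays were averaged per gene. 4 probes had several symbols and 5073 none. limma 3.58.1 (R 4.3.3) fitted a mean for each group of 2 arrays, with 2 residual and 4.98 prior degrees of freedom, two-sided, and was tested on simulated data. Named genes are the 5 members, CHUK, the 3 nearest genes of each, called list members and the 2 largest means with inhibitor of each list. Members and lists were chosen with earlier results of these data known. Alternatives are given in the closing section.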

Additional observations from a re-analysis of the deposited data

Results flagged for a closer look

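RGS1 stood out because both arrays with inhibitor lay above 0 and both arrays without inhibitor below 0, as was so for 3.23% of genes. The difference of means, 0.55, did not pass the test over all genes (limma adjusted p = 0.989). At 3 h the gene value was close to 0 (0.04) and its probe 19243 lay below 0 (-0.19). Without the 24 h array the difference was 0.19.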

How the results depend on the processing

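Median centring, averaging all probes that had 1 value in each group, single probes, doxycycline day as a block, a robust prior and an adjusted p under 0.10 left 3 members called with inhibitor, and scaling to equal spread left 2. Leaving out each array gave 0 to 4. Without inhibitor 0 members passed, which became 2 after equal spread (S1PR1, ALCAM), 1 with single probes and 1 with the day as a block. The count without inhibitor also rose when either array with inhibitor was left out, although the means without inhibitor stay the same in those fits. For the difference 0 passed and 0 to 1 with an array left out (RGS1, without the 3 h array). The difference of ALCAM turned sign with median centring (0.001), equal spread (0.76), without the 24 h array and without the 2-day array lacking inhibitor, and ran from -0.555 to 0.554 as arrays were left out. That of CD44 turned with the single probes that had 1 value in each group (0.0041), and without the 24 h array or that 2-day array, with a range of -0.22 to 0.10. The cause was not tested, apart from the sample left out.

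Over all genes the count without inhibitor, 0, became 191 after equal spread, 56 with the day as a block and 24 of 9788 single probes, and the count with inhibitor, 164, became 908 with the day as a block, 979 single probes, 34 without either array lacking inhibitor and 858 without the 3 h array. After equal spread the count with inhibitor was 150, beside the 191 without. Before that scaling the inhibitor array had the wider spread over genes at each day. Its median absolute deviation was 0.166 against 0.109 at 2 days, and 0.259 against 0.177 at 3 days. Signal over background is unknown, and CCR7 and ALCAM rest on 1 fitted probe each. The labels give no replicate numbers, and the arrays were paired across the groups only by doxycycline day, in the fits with the day as a block.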
